A study of Mus musculus with 15 samples.

Results

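Spi1, Csf1r, Itgam, Adgre1, Cd68, Clec4f, Marco, Siglec1, S100a8 and Vsig4 are 10 genes that mark macrophages and other myeloid cells. They were chosen by name, and all 10 were found among 21887 protein-coding genes of the mouse. Their promoters were examined for H3K4me3 and H3K27me3, and their bodies for H3K9me3, in whole liver. Where H3K4me3 was called at their starts, its fold was below the median of marked starts in the same list. The median folds of marked genes of other liver cell types lay below it too. The share of the 10 genes marked at the start was near that over all genes in the replicate 2 libraries for H3K4me3. It was below that share in the replicate 1 libraries. All but Itgam, Cd68 and Vsig4 had their start in an H3K27me3 island in at least 1 library, whereas 67.8% of all genes had none in the 6 libraries for that mark. Itgam and Vsig4 carried neither mark at the start in any of the 10 libraries for those marks.

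Kupffer cells are the resident macrophages of the liver, where they line the sinusoids and clear particles, old blood cells and microbes. Their identity depends on the transcription factor PU.1, encoded by Spi1, and on signals through the receptor for colony stimulating factor 1, encoded by Csf1r. H3K4me3 is a mark of active and poised promoters, H3K27me3 is laid down by Polycomb proteins at silent genes, and H3K9me3 marks heterochromatin. Liver tissue is mostly hepatocytes, and a chromatin sample of it mixes all of its cell types.

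Chromatin came from livers of C57Bl/6 mice aged 8 to 12 weeks on a normal diet. The Uhrf1hepKO (KO) mice lack Uhrf1, which directs the upkeep of DNA methylation, in hepatocytes, per the name of the allele. Macrophages in these livers were therefore not the cells named as the target of the deletion. For H3K4me3 there were 2 KO and 2 WT (wild type) libraries, and replicate 2 of each is labelled round 2. For H3K27me3 there were 1 KO and 2 WT libraries of unstimulated liver, and regenerating WT liver gave 1 library per time, at 30, 40 and 96 h. WT replicate 2 of H3K27me3 was the 0 h library of the regeneration round. For H3K9me3 there was 1 KO and 1 WT library. The labels do not say that libraries came from separate animals, how regeneration was started, or from how many livers each library was made.

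A start was called marked when at least 1 bp of a window reaching 1000 bp either side of it lay in a region that the authors had called. The H3K4me3 lists of replicate 1 held 73431 peaks in KO and 72177 in WT, and those of replicate 2 held 27006 in KO and 25714 in WT. The share of all genes marked by H3K4me3 was 59.9% and 56.8% in KO replicates 1 and 2, and 60.8% and 54% in WT replicates 1 and 2. H3K27me3 lists held 13016 islands in KO, 10486 to 12164 in unstimulated WT liver and 11841 to 13964 in regenerating WT liver, with 12764569 to 21738935 ChIP reads inside them. Total reads per library are not known, and no counts per promoter were available. No test between groups was made and no p-values are given, because there were at most 2 libraries in a group. In these tissue samples, fewer cells that carry a mark and less of the mark per cell cannot be told apart.

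For 6 of the 10 genes the promoter sequence was at hand, from 250 bases before the start to 50 after it (RefSeq, GRCm38.p6), and 4 of them are shown because they span the outcomes seen. Clec4f and Cd68 had H3K4me3 in replicate 2 of both genotypes, S100a8 in a single library, and Vsig4 in none. Capitals mark the letters GAGGAA, the core recognised by PU.1 and other ETS factors, on either strand (TTCCTC on the reverse), and TGANTCA, the letters bound by AP-1 factors.
Clec4f, chr6:83656067-83656366, minus strand: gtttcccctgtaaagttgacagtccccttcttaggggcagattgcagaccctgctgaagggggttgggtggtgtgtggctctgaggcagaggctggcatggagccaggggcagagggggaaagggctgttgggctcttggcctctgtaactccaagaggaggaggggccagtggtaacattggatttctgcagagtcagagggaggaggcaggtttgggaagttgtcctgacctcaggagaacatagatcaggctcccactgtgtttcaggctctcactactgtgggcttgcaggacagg
Cd68, chr11:69666121-69666420, minus strand: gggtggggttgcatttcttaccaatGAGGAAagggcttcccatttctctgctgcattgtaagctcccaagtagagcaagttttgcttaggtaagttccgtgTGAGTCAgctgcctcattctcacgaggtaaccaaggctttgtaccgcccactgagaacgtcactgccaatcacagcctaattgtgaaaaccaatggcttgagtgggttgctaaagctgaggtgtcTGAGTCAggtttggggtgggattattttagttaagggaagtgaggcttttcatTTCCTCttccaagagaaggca
S100a8, chr3:90668821-90669120, plus strand: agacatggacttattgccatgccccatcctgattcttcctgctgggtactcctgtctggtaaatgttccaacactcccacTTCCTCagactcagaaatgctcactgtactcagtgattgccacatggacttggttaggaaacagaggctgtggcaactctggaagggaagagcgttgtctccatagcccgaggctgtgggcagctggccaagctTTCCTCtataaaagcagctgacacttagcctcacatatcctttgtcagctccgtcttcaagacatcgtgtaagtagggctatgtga
Vsig4, chrX:96293389-96293688, minus strand: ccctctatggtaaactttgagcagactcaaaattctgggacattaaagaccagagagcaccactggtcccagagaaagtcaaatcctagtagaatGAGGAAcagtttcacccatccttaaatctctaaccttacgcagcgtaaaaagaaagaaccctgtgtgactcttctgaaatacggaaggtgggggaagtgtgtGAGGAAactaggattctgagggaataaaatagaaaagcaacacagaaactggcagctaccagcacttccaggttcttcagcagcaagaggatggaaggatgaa

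GAGGAA was found 2 times in Cd68, 2 times in S100a8, 2 times in Vsig4 and 0 times in Clec4f. Of the promoters not shown, Itgam held 3 and Marco 1. TGANTCA was found 2 times in Cd68 and in no other promoter of the 6. The sequence TATAAA stood in S100a8 alone of the 6, next to a GAGGAA match. Over 15752 mouse promoters of the same length, 27.2% held GAGGAA, 7% held TGANTCA and 13.7% held TATAAA. These matches are letters in a window and were not measured as binding. The H3K4me3 peaks lay almost wholly outside the printed stretches. Only the peak at S100a8 in WT replicate 1 reached in, over 105 bases, and the peaks at Clec4f and Cd68 began further into the gene.

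H3K4me3 marked the start of 1 of the 10 genes in KO replicate 1 and of 6 in KO replicate 2, against 3 in WT replicate 1 and 5 in WT replicate 2. These counts take Spi1 at its high end, where the placement rule put its start. At its low end, where the mouse gene is known to begin, the counts were 0 and 6 in KO replicates 1 and 2, against 3 and 4 in WT replicates 1 and 2. The share over all genes was 59.9% and 56.8% in KO replicates 1 and 2, against 60.8% and 54% in WT replicates 1 and 2. A gain in KO was defined as a call in both KO and neither WT library, and a loss as the reverse. No member met the first definition, which 0.123% of all genes met, and no member met the second, met by 0.0137% of all genes. With so few genes meeting either definition in the whole genome, a count of 0 among 10 carries little information. Set side by side by replicate number, no member was marked in KO replicate 1 and not in WT replicate 1 (0.745% of all genes), and Adgre1 and S100a8 were marked in WT replicate 1 and not in KO replicate 1 (1.63%). Siglec1 was marked in KO replicate 2 and not in WT replicate 2 (2.92%), and no member in WT replicate 2 and not in KO replicate 2 (0.201%). With Spi1 at its low end, Spi1 joined Adgre1 and S100a8 in replicate 1 and Siglec1 in replicate 2. The replicates differed from each other within each genotype. Csf1r, Cd68 and Clec4f were marked in both replicate 2 libraries and in neither replicate 1 library, a pattern shared by 57 genes, 0.26% of all. The opposite pattern was met by no member, and by 781 genes, 3.57% of all.

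**Figure D1:**
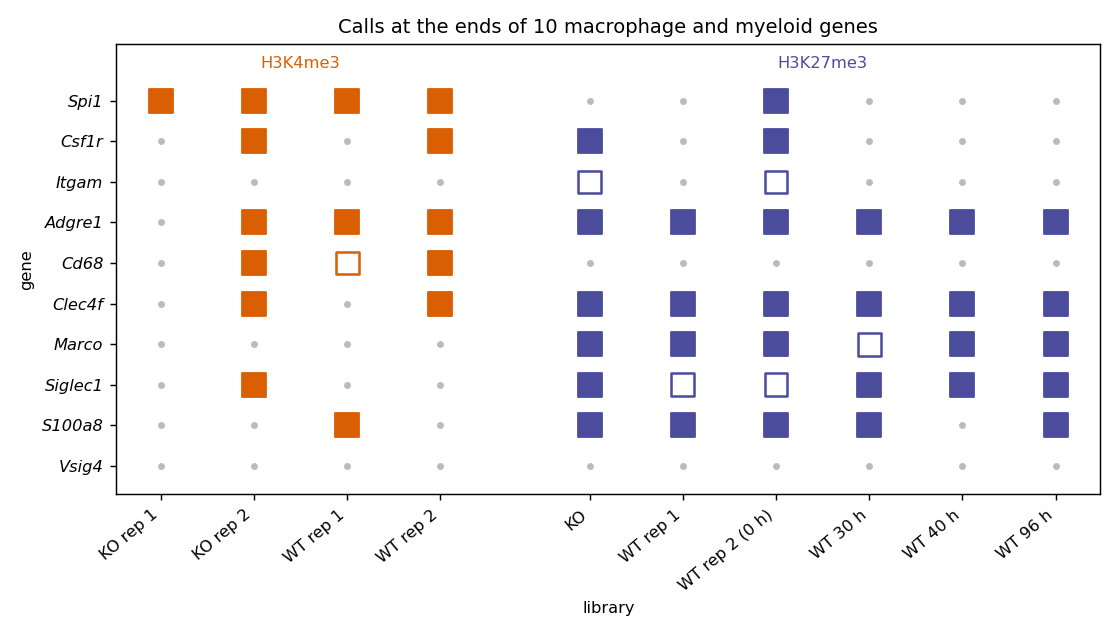
Calls at the 10 genes (rows) in 4 H3K4me3 and 6 H3K27me3 libraries (columns). A filled square is a region within 1000 bp of the start, an open square a region at the other end only, and a grey dot neither. Spi1 is drawn at its high end, and its low end had H3K4me3 in KO replicate 2 and WT replicate 1 only. Adgre1 and Clec4f have filled squares in all 6 H3K27me3 columns, and Vsig4 has none in any column.

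The H3K4me3 folds of the members were low within their lists. Leaving Spi1 aside, the authors' fold at the 5 other members marked in KO replicate 2 lay between 3.56 and 8.6, where the median over all marked starts of that list was 63.1. At the 4 others marked in WT replicate 2 it lay between 4.41 and 5.88, where the median was 46.0. None of these values was above percentile 7.98 of its own list. In replicate 1, no other member was marked in KO, and Adgre1 and S100a8 in WT were at percentile 1.89 or below. The peak at the high end of Spi1 stood at percentile 21.9 and 12.5 in KO replicates 1 and 2, against 29.6 and 3.87 in WT replicates 1 and 2. Folds were ranked within a list only, since the lists differ in length and in the spread of their folds. In replicate 2, markers of other liver cells, described below, also had median folds below those of all marked starts. In KO replicate 2 the median was 9.79 for marked lymphocyte, 7.75 for stellate and 18.9 for endothelial genes. It was 37.0 for bile duct and 47.0 for hepatocyte genes. In WT replicate 2 these medians were 7.34, 8.32, 12.3, 26.9 and 40.6 in the same order.

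H3K27me3 marked 6 of the 10 starts in KO liver, against 4 in WT replicate 1 and 6 in WT replicate 2. The share over all genes was 22.5% in KO, 21.8% in WT replicate 1 and 26.8% in WT replicate 2. Siglec1 was the member marked in KO and in neither WT library, as were 0.923% of all genes, and no member was marked in both WT libraries and not in KO, as were 1.35% of all genes. KO and WT replicate 1 shared their control, as all 414 islands with equal bounds had equal control reads. WT replicate 2 shared no control count with WT replicate 1 in 157 such islands. Spi1 was marked in WT replicate 2 and in neither of the other unstimulated libraries, as were 4.91% of all genes.

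During regeneration the members marked numbered 6 at 0 h, 4 at 30 h, 4 at 40 h and 5 at 96 h. The background shares were 26.8%, 16.9%, 16.4% and 24.1% at those times. The median fold over all marked starts was 1.76, 1.51, 1.51 and 1.76 at those times, so folds below are to be read against these. Spi1, Csf1r and Marco were marked at 0 h and not at 30 h, as were 11.5% of all genes, or 43% of the genes marked at 0 h. Spi1, Csf1r and S100a8 were marked at 0 h and not at 40 h, as were 12.2% of all genes, or 45.3% of those marked at 0 h. Spi1 and Csf1r were marked at 0 h and not at 96 h, as were 5.37% of all genes, or 20% of those marked at 0 h. Siglec1 alone was marked at 30, 40 and 96 h and not at 0 h, and the background for such calls was 1.59%, 1.75% and 2.66% of all genes. With WT replicate 1 as the starting point in place of the 0 h library, 1, 1 and 0 members were unmarked at 30, 40 and 96 h. The 0 h list was made with a different control from the later ones, as only 1 of 133 islands with equal bounds had equal control reads at 0 and 30 h, against 250 of 250 at 30 and 40 h. The 30 and 96 h lists also shared their control, in 221 of 221 such islands. Between 0 h and the later times, a change with time and a change of control cannot be told apart.

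Spi1 lies on chromosome 2 from 91082374 to 91115759, and its strand is not in the table used. By the rule applied to such genes, the end with more H3K4me3 was taken, which is the high end. The mouse gene is known to be read from low to high coordinates, so that end is where its transcript finishes. The peak there lay 93 to 460 bp inside the gene in KO replicate 1 (fold 11.3) and 125 to 455 bp in KO replicate 2 (fold 12.7), against 39 to 439 bp in WT replicate 1 (fold 15.5) and 289 to 432 bp in WT replicate 2 (fold 5.88). The start of Mybpc3, a gene for a protein of heart muscle, stands 2355 bp beyond that end. All 4 libraries thus had a peak at the far end of Spi1, and the low end was less regular. Within 1000 bp of the low end, KO replicate 2 had peaks of fold 3.63 and 5.73 and WT replicate 1 had a peak of fold 4.08, and the other libraries had none. Every library also had a peak inside the gene between 14083 and 15438 bp from the low end. The fold there was 4.47 in KO replicate 1 and 7.88 in KO replicate 2, against 3.50 in WT replicate 1 and 6.37 in WT replicate 2. The peak of WT replicate 1 ended at 14226 bp, before those of the other 3 libraries began.

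H3K27me3 at Spi1 was called in WT replicate 2 only. One island of 29 kb (fold 1.71) ran from 5373 bp before the low end to 23626 bp into the gene, and another of 23 kb (fold 1.55) crossed the high end. Both ends were thus marked at 0 h and in no other library. In KO and WT replicate 1 the nearest island stood 226759 bp away, and at 30 h it was 876242 bp away.

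Csf1r, on chromosome 18, encodes the receptor through which macrophages receive their survival signal, and its start too was placed by H3K4me3. Within 1000 bp of its start H3K4me3 was absent from KO replicate 1 and had a fold of 8.6 in KO replicate 2, against no peak in WT replicate 1 and a fold of 5.76 in WT replicate 2. KO replicate 2 had 3 peaks over the first 2368 bp and WT replicate 2 had 2 over the first 1322 bp. KO replicate 1 had a lone peak 4870 bp into the gene with a fold of 3.95. The nearest peak in WT replicate 1 stood 70479 bp from the start.

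Csf1r has Pdgfrb on its start side, which encodes a growth factor receptor of stellate cells and pericytes, and H3K27me3 islands reached it from that side. In KO liver an island of 81 kb (fold 1.86) ended 572 bp before the start of Csf1r. In WT replicate 1 the like island, of 50 kb (fold 1.88), ended 32572 bp before it, and in WT replicate 2 an island of 22 kb (fold 1.41) crossed the start by 1428 bp. At 30, 40 and 96 h the nearest islands ended 13572, 9572 and 7572 bp before it. The call at Csf1r thus turned on where one border fell, and the gene body held island sequence in WT replicate 2 alone, over 5.59% of its length.

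**Figure D2:**
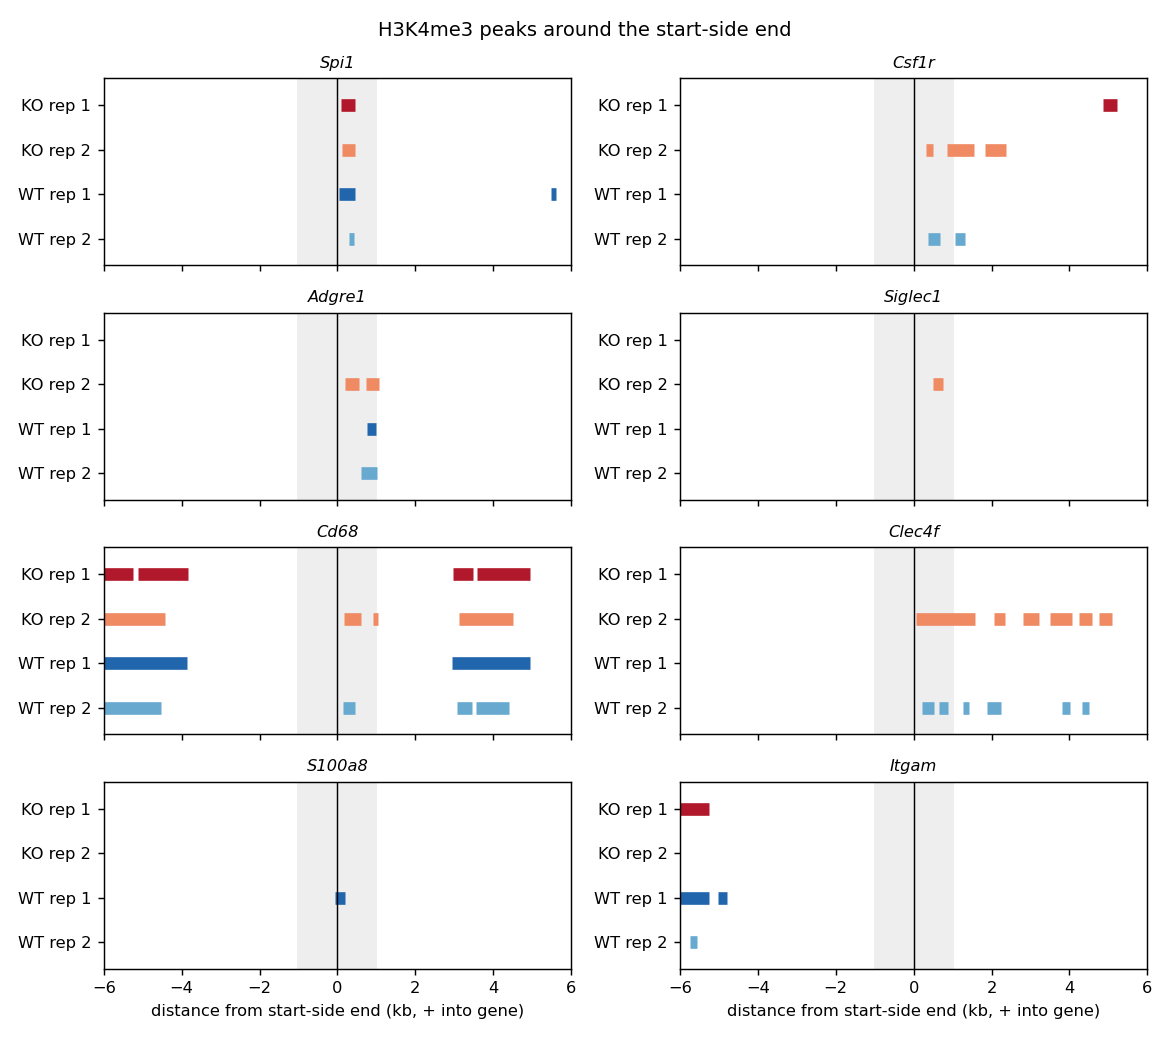
H3K4me3 peaks (bars) within 6 kb of the start-side end of 8 genes in 2 KO and 2 WT libraries, against the distance in kb, positive into the gene. The shaded band is the window of 1000 bp either side. At Clec4f both replicate 2 rows carry several peaks over the first 5 kb and both replicate 1 rows are empty.

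Itgam (chromosome 7, 128062640 to 128118491, plus strand) encodes CD11b, the integrin alpha chain of the complement receptor on neutrophils, monocytes and macrophages. No library had an H3K4me3 peak at its start, as at Marco and Vsig4 and at 37.7% of all genes. KO replicate 1 had a peak ending 5267 bp upstream (fold 10) and KO replicate 2 had none nearer than 52429 bp, against WT peaks ending 4788 and 5250 bp upstream in replicate 1 (folds 3.21 and 10.2) and 5573 bp upstream in replicate 2 (fold 8.81). Its start lay in no H3K27me3 island either. Islands covered the far part of the gene over 27.7% in KO, against 0% in WT replicate 1 and 33.1% in WT replicate 2, and over 0%, 51.9% and 43.0% at 30, 40 and 96 h. In KO and WT replicate 2 these islands ran on over Itgax, the neighbouring integrin gene, which begins 66886 bp from the start of Itgam. At 40 and 96 h they ended inside Itgam.

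Adgre1 (chromosome 17, 57358581 to 57483529) encodes F4/80, the surface receptor by which mouse macrophages are commonly stained. Its strand is not in the table, and the low end was taken as the start because only that end had H3K4me3. KO replicate 1 had no peak within 23417 bp and KO replicate 2 had 2 peaks with a highest fold of 4.66, against a single peak of fold 3.50 in WT replicate 1 and of 4.41 in WT replicate 2. These were among the lowest folds of any marked start, at percentile 1.10 or below in each list. H3K27me3 marked the start in all 6 libraries, as it did for 10.2% of all genes. The island across it measured 78 kb in KO (fold 1.37), against 86 kb in WT replicate 1 (fold 1.46) and 28 kb in WT replicate 2 (fold 1.76). At 30, 40 and 96 h it measured 23, 17 and 20 kb, with folds of 1.44, 1.57 and 1.54. Islands together covered 89.2% of the gene in KO, against 94.4% and 50.8% in WT replicates 1 and 2, and 46.0%, 25.1% and 47.2% at 30, 40 and 96 h.

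Cd68 (chromosome 11, 69664213 to 69666170, minus strand) encodes a glycoprotein of macrophage lysosomes. It had a peak 161 bp past its start in KO replicate 2 (fold 5.08) and 154 bp past it in WT replicate 2 (fold 5.88), and none at the start in either replicate 1 library. Peaks covered 30.7% of this short gene in KO replicate 2 and 14.6% in WT replicate 2. The gene stands between Mpdu1 and Eif4a1, both used in most cell types, whose own peaks were called in every library. The strongest fold within 6000 bp was 18.9 and 78.7 in KO replicates 1 and 2, against 20.1 and 62.7 in WT replicates 1 and 2. No H3K27me3 island was nearer than 47170 bp to Cd68 in any of the 6 libraries.

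Clec4f (chromosome 6, 83644542 to 83656116, minus strand) encodes a C-type lectin that in the mouse is largely restricted to Kupffer cells. In KO replicate 2 it held 7 peaks, the first running from 58 to 1583 bp past the start with a fold of 7.25, and in WT replicate 2 it held 6, the first from 218 to 517 bp past the start with a fold of 3.84. Together the peaks covered 31.5% of the gene in KO replicate 2 and 12.4% in WT replicate 2. Both replicate 1 libraries had no peak nearer than 54736 bp (KO) and 54698 bp (WT). At Clec4f the replicate 2 libraries of both genotypes thus had peaks and the replicate 1 libraries of both had none.

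The H3K27me3 island over Clec4f had the highest fold at a member's start in each of the 6 libraries. It measured 161 kb in KO (fold 2.25, with 8725 ChIP and 6042 control reads), against 167 kb in WT replicate 1 (fold 2.28, 8190 and 6234 reads) and 166 kb in WT replicate 2 (fold 2.22, 9938 and 10027 reads). At 30 h the island measured 50 kb with a fold of 1.69, at 40 h 133 kb with a fold of 1.64, and at 96 h 167 kb with a fold of 2.21. The gene was wholly covered at every time except 30 h, when 56.8% was. In the unstimulated libraries and at 96 h the same island took in Cd207, which encodes langerin, as well as Vax2 and Stambp, so its values belong to 4 genes together. Its fold lay at percentile 92.5 of marked starts in KO, 89.7 and 89.5 in WT replicates 1 and 2, and 88.9, 76.0 and 84.6 at 30, 40 and 96 h.

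**Figure D3:**
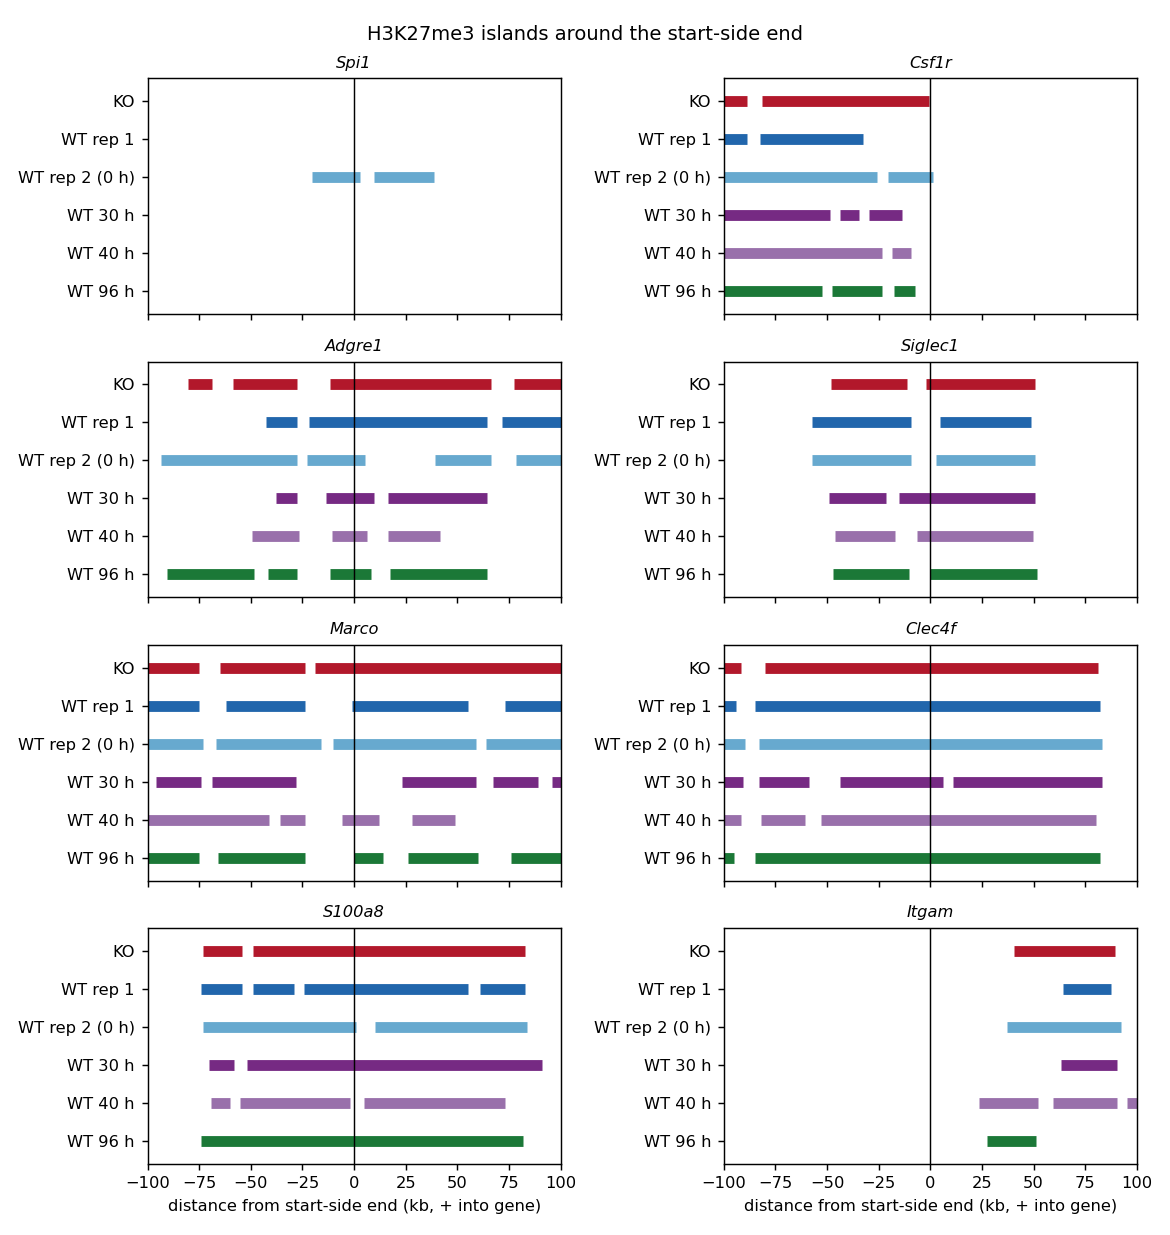
H3K27me3 islands (bars) within 100 kb of the start-side end of 8 genes in 6 libraries, against the distance in kb, positive into the gene. Gaps in the bars are stretches with no island. The island across Clec4f is broken at 30 h, that across Siglec1 begins inside the gene in both unstimulated WT libraries, and Spi1 has islands in the 0 h row only.

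Marco (chromosome 1, 120474538 to 120505024, minus strand) encodes a scavenger receptor for bacteria and particles. No H3K4me3 peak lay within 6000 bp of the gene in any library. H3K27me3 covered the whole gene in KO (148 kb, fold 1.51), and also in WT replicate 1 (56 kb, fold 1.57) and WT replicate 2 (69 kb, fold 1.56). At 30 h the start was free and the nearest island began 23024 bp into the gene. At 40 h the start lay in an island of 18 kb (fold 1.43), and at 96 h an island of 14 kb (fold 1.44) began 24 bp inside it. The share of Marco covered was 24.5%, 47.5% and 60.6% at 30, 40 and 96 h.

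Siglec1 (chromosome 2, 131067801 to 131086778) encodes sialoadhesin, a receptor for sialic acid on resident macrophages. Its strand is not in the table, and the high end was taken as its start because of 1 H3K4me3 peak, which KO replicate 2 had 509 bp inside with a fold of 3.56. That fold was at percentile 0.0966 of its list, and the other 3 libraries had no peak within 40449 bp. The H3K27me3 island over the gene ran from 2222 bp beyond the start to 50777 bp past it in KO (53 kb, fold 1.85). In WT replicate 1 it began 4778 bp inside the gene (44 kb, fold 1.93), and in WT replicate 2 it began 2778 bp inside (48 kb, fold 2.10). At 30, 40 and 96 h it began 15222, 6222 and 222 bp beyond the start, with folds of 1.57, 1.63 and 1.93. Those 3 folds lay at percentile 65.2, 75.8 and 68.1 of marked starts in their lists, and that of KO at percentile 57.2. The island was thus present in all 6 libraries and covered 100% of the gene in KO, against 74.8% and 85.4% in WT replicates 1 and 2. The gain called in KO was a shift of the border by a few kb, and it was not called when either end of a gene could count.

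S100a8 (chromosome 3, 90669071 to 90670034, plus strand) encodes a subunit of calprotectin, abundant in neutrophils and monocytes. H3K4me3 was called at its start in WT replicate 1 alone (fold 4.13, percentile 1.89), over 19.4% of this short gene. In KO the nearest peaks stood 55961 bp away in replicate 1 and 55944 bp in replicate 2, and in WT replicate 2 the nearest stood 127206 bp away. The H3K27me3 island across it measured 132 kb in KO (fold 1.77), against 79 kb in WT replicate 1 (fold 1.82) and 74 kb in WT replicate 2 (fold 1.69). At 30 h it measured 143 kb (fold 1.51) and at 96 h 156 kb (fold 1.75). At 40 h the gene fell in a gap, with one island ending 2071 bp before its start. S100a7a shared the island in every library where it covered S100a8, and S100a9, which encodes the other calprotectin subunit, shared it in all of these but WT replicate 2.

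Vsig4 (chromosome X, 96247201 to 96293438, minus strand) encodes a complement receptor that is a marker of Kupffer cells. Its nearest H3K4me3 peak stood 162700 and 162943 bp from the start in KO replicates 1 and 2, against 162728 and 162976 bp in WT replicates 1 and 2. The nearest H3K27me3 island of any library was 1927438 bp away, at 96 h. Chromosome X as a whole held 10 islands in KO, against 13 and 17 in WT replicates 1 and 2, and 8, 9 and 22 at 30, 40 and 96 h. Of the 966 genes on X, 0.414% were marked in KO, against 0.621% and 0.725% in WT replicates 1 and 2, so the absence of islands at Vsig4 was shared by nearly the whole chromosome.

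Starts with both marks at once, H3K4me3 in both libraries of a genotype and H3K27me3 in replicate 1, numbered 0 of 10 in KO, where 6.32% of all genes met this, and 1 of 10 in WT, where 5.27% did. The gene was Adgre1. When H3K4me3 in at least 1 library was enough, 4 members qualified in KO (Csf1r, Adgre1, Clec4f and Siglec1), where 9.09% of all genes did, and 3 in WT (Adgre1, Clec4f and S100a8), where 9.28% did. The marks were measured in separate libraries of mixed tissue, so whether they lie on the same chromosomes was not tested. Neither mark was called in any of the 10 libraries at Itgam and Vsig4, as at 19.9% of all genes. H3K9me3 broad peaks covered at least 10% of none of the 10 genes, against 2.82% of all genes in KO and 3.08% in WT. Adgre1 was the only member with any, over 1.84% of its length in KO and 4.88% in WT.

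Wider lists of myeloid genes were set beside the members. Over all genes, H3K4me3 marked 59.9% and 56.8% in KO replicates 1 and 2, against 60.8% and 54% in WT replicates 1 and 2. The 11 genes of Kupffer cell identity had H3K4me3 at 5 and 6 starts in KO replicates 1 and 2, against 4 and 5 in WT replicates 1 and 2. The 4 marked in all libraries, as 53.3% of all genes were, were C6, Il18bp, Slc40a1 and Hmox1, and C6, Slc40a1 and Hmox1 are also expressed outside macrophages. Of 26 macrophage and monocyte genes, 10 and 18 were marked in KO replicates 1 and 2, against 10 and 11 in WT replicates 1 and 2. In that list 7 genes were marked in KO replicate 2 and not in WT replicate 2. They were Fcgr3, C1qb, C1qc, Lyz2, Lgals3, Itgb2 and Ncf1. Over all genes this call was met by 2.92% and the reverse call by 0.201%, so the replicate 2 lists were uneven genome-wide. Replicate 1 gave other calls. Itgb2, which encodes the beta chain that pairs with CD11b, was marked in replicate 1 of both genotypes, and C1qb, C1qc and Lyz2 in neither.

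Neutrophil granule genes were almost bare of H3K4me3, with 0 and 2 of 16 marked in KO replicates 1 and 2, against 1 and 1 in WT replicates 1 and 2. Of the 16, 13 were marked in no library, as were 37.7% of all genes. Myeloid transcription factors stood at the other end, with 14 and 13 of 16 marked in KO replicates 1 and 2, against 15 and 14 in WT replicates 1 and 2. Among them, 12 were marked in every library, including Cebpa, Cebpb and Nr1h3, which hepatocytes also use. The share over all genes was 53.3%. Of 18 growth factors, chemokines and receptors, 9 and 10 were marked in KO replicates 1 and 2, against 9 and 7 in WT replicates 1 and 2. Markers of other liver cells gave 9 and 8 of 10 hepatocyte genes in KO replicates 1 and 2, against 9 and 7 in WT, and 10 and 9 of 10 endothelial genes in KO, against 10 and 9 in WT. Stellate genes gave 5 and 8 of 10 in KO against 7 and 7 in WT, bile duct genes 5 and 4 of 10 in KO against 5 and 4 in WT, and lymphocyte genes 2 and 3 of 10 in KO against 2 and 2 in WT.

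**Figure D4:**
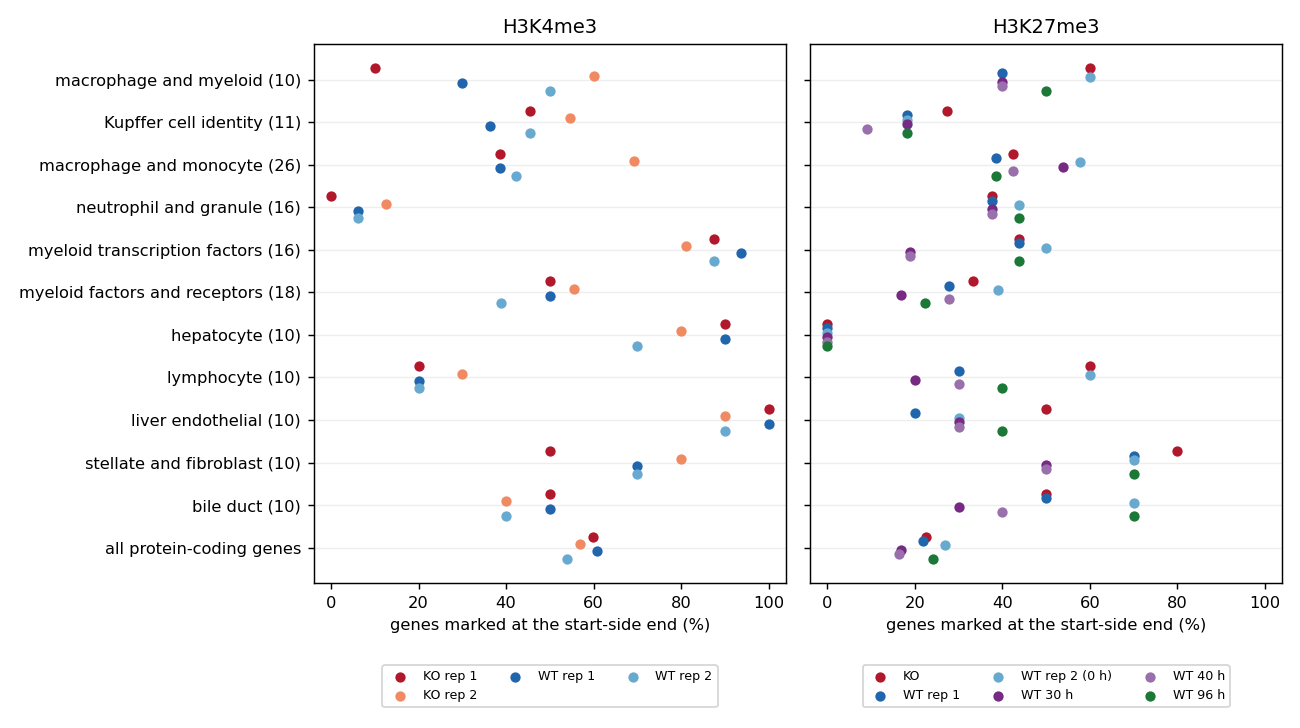
Percent of genes marked at the start-side end (horizontal axis) for the 10 macrophage and myeloid genes, 10 other gene lists with the number of genes in brackets, and all protein-coding genes, in 4 H3K4me3 and 6 H3K27me3 libraries (1 point each). Hepatocyte genes lie at 0% for H3K27me3 in every library, and the 10 macrophage and myeloid genes lie between 40% and 60%. Stellate genes lie between 50% and 80%, bile duct genes between 30% and 70%. Lymphocyte genes lie between 20% and 60%, endothelial genes between 20% and 50%.

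H3K27me3 marked some genes of every myeloid list. The share over all genes was 22.5% in KO, against 21.8% and 26.8% in WT replicates 1 and 2. At 30, 40 and 96 h it was 16.9%, 16.4% and 24.1%. H3K27me3 was called at 11 of 26 macrophage and monocyte genes in KO, against 10 and 15 in WT replicates 1 and 2, and 14, 11 and 10 at 30, 40 and 96 h. It marked 6 of 16 neutrophil genes in KO, against 6 and 7 in WT replicates 1 and 2, and 6, 6 and 7 at the later times. Myeloid transcription factors had 7 of 16 in KO, against 7 and 8 in WT replicates 1 and 2, and 3, 3 and 7 at 30, 40 and 96 h. Kupffer identity genes had 3 of 11 in KO, against 2 and 2 in WT, and 2, 1 and 2 later, while the factors and receptors had 6 of 18 in KO, against 5 and 7 in WT, and 3, 5 and 4 later. No hepatocyte gene of 10 was marked in any library. Stellate genes had 8 of 10 in KO, against 7 and 7 in WT, and 5, 5 and 7 later. Bile duct genes had 5 of 10 in KO, against 5 and 7 in WT, and 3, 4 and 7 later. Lymphocyte genes had 6 of 10 in KO, against 3 and 6 in WT, and 2, 3 and 4 later. Endothelial genes had 5 of 10 in KO, against 2 and 3 in WT, and 3, 3 and 4 later. Cd163, a haemoglobin scavenger receptor, had an island in KO (fold 1.45) and in neither WT library, and so did Ccl2, a chemokine for monocytes (fold 1.56). Such a call was met by 0.923% of all genes. The lists of 3 other cell types also had such genes. They were Gzma and Ptprc of the lymphocyte list, Clec4g and Tek of the endothelial list, and Dcn and Col3a1 of the stellate list. The lists of hepatocytes and bile duct had none. Reln of the stellate list and Prom1 of the bile duct list were marked in both WT libraries and not in KO, as were 1.35% of all genes.

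Likeness was counted as equal calls over the 10 libraries of H3K4me3 and H3K27me3. Clec4f had the same 10 calls as 13 other genes, and 2 of them were in the myeloid lists. These were Fcgr1, an Fc receptor of macrophages, and C1qa, a chain of complement C1q made by macrophages. At Fcgr1 the H3K4me3 fold was 3.52 in KO replicate 2 and 4.9 in WT replicate 2, and at C1qa it was 6.89 in KO replicate 2 and 4.41 in WT replicate 2. Cd68 shared its calls with 20 other genes, Itgal among them. Spi1, taken at its high end, shared its calls with 238, Tgfb1 among them. Itgam and Vsig4 shared theirs with 4356 other genes, 13 of them in the myeloid lists, such as Folr2, Fcna, Slc11a1, Aif1 and Ly6c2. Csf1r had the calls of no other gene, and Siglec1, Adgre1, S100a8 and Marco those of 1, 8, 15 and 194 others, none in the myeloid lists.

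CpG content was low in the members whose promoters were at hand. Clec4f and Marco had 0 CpG in 300 bases, Vsig4 had 3, Cd68 and S100a8 had 4 each and Itgam had 6, against a median of 14 over 15752 promoters. Over the 853 promoters with no CpG, H3K4me3 marked 4.22% and 4.10% in KO replicates 1 and 2, against 4.57% and 3.52% in WT replicates 1 and 2. Over the 5346 promoters with 21 to 65 CpG it marked 93.8% and 91.0% in KO, against 94.9% and 88.5% in WT. Clec4f was therefore one of few CpG-free promoters with H3K4me3 in replicate 2. H3K27me3 marked 17.6% of CpG-free promoters in KO, against 18.8% in WT replicate 1, and 16.8% in KO, against 17.0% in WT replicate 1, at 21 to 65 CpG. Of the classes between, that of 11 to 20 CpG stood at 18.4% in KO and 18.5% in WT replicate 1. The other classes between were higher, with 28.3% in KO and 25.2% in WT replicate 1 at 3 to 5 CpG, the class of Cd68, S100a8 and Vsig4. At 6 to 10 CpG, the class of Itgam, the shares were 28.8% in KO and 26.3% in WT replicate 1.

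**Figure D5:**
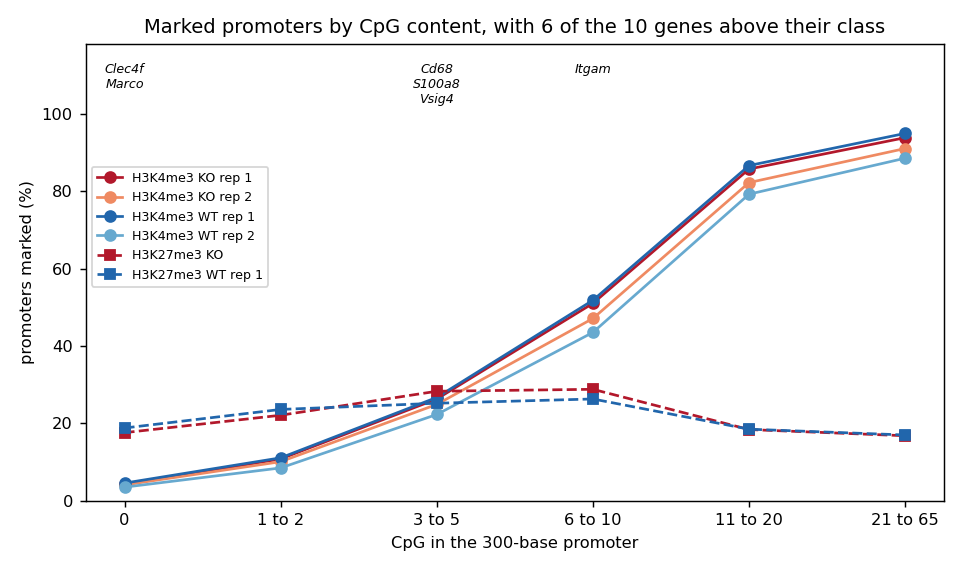
Percent of promoters marked (vertical axis) in 6 classes of CpG number per 300-base promoter (horizontal axis), for H3K4me3 in 4 libraries (solid lines) and H3K27me3 in KO and WT replicate 1 (dashed lines). Names above the lines place 6 of the 10 genes in their class, and all 6 lie in classes of 10 CpG or fewer, where H3K4me3 marks at most 51.8% of promoters.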

How the data were processed

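ChIP-seq of H3K4me3, H3K27me3 and H3K9me3 was read from 14 region lists of 12 libraries among 15 samples. The 2 H3K9me3 libraries have a broad and a narrow list each, and broad peaks were used unless stated. The 3 inputs entered only through the authors' calls. Reads were processed with SICER, MACS2, Picard, BWA, FastQC 0.11.5 and Trimmomatic (no order given) on the builds GRCm38.p4 and mm10, per the submitters' processing notes. No other version is given in the sources used here. The authors called regions in each library separately. For every peak, the deposited MACS2 lists hold its score, its fold enrichment, its −log10 p-value and its −log10 q-value. The deposited SICER lists (window 1000 bp, gap 4000 bp, per the file names) give ChIP and control read counts, a p-value, a fold over scaled control and a false discovery rate, as deposited by the authors. Islands were kept at a false discovery rate of 0.01 or below. Folds are the authors' and describe regions within a list.

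Gene bounds came from RefSeq GRCm38.p6. The start was the annotated one for 17492 of 21887 genes, the end with more H3K4me3 for 2815, and both ends for 1580. Where both sources gave an end they coincided for 10524 of 11169 genes (94.2%). Strand was annotated for 6 of the 10 members, and Spi1, Csf1r, Adgre1 and Siglec1 were placed by H3K4me3, so their H3K4me3 calls are not independent of that placement. The replicate 2 H3K4me3 libraries carry an antibody tag naming H3K9me3 and were grouped by title. In KO 92.1% and in WT 95.8% of their peak length lay in replicate 1 H3K4me3 peaks, against 0.447% in KO and 0.476% in WT in H3K9me3 broad peaks.

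The 10 members and the other gene lists were chosen with earlier results of these data known. All members are named. From the other lists, the rule named at most 5 genes a list whose call differed between KO and both WT libraries or between 0 h and later, and list genes with the same 10 calls as a member. Other list genes were named after their values were seen. Alternatives changed the window, the threshold, the end, the library and the starting point. Overlap code was tested on simulated regions over the real genes. Python 3.11.15, numpy 2.4.6, pandas 2.3.3 and matplotlib 3.10.9 were used.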

Additional observations from a re-analysis of the deposited data

How the results depend on the processing

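No paired test was made, because the region lists hold no counts per promoter to which a model with a block could be fitted. The calls of same-numbered H3K4me3 libraries are set side by side in the report. Of 92 alternatives over 11 counts of members, 74 left the count within 1.5 times the main one and 18 moved it. No H3K4me3 gain in KO became 1 without KO replicate 1 (Siglec1, range 0 to 1 over left-out libraries), and no loss became 1 without KO replicate 2 or without WT replicate 2 (range 0 to 1). The H3K27me3 gain of 1 became 0 when either end could count and 2 with islands of fold 1.5 or more, and ranged from 1 to 2 over left-out libraries. The H3K27me3 loss of 0 became 1 at equal covered length and ranged from 0 to 1 over left-out libraries. Members marked at 0 h and not later became 1 at 96 h at equal covered length. With WT replicate 1 as the starting point they became 1 at 30 h, 1 at 40 h and 0 at 96 h. Both marks in WT became 0 with a window of 250 bp, 0 when the regions had to fill the larger part of the window, 0 with islands of fold 1.5 or more, 2 with WT replicate 2 of H3K27me3 and 3 with H3K4me3 in at least 1 library. Both marks in KO became 4 with that last setting, which was chosen after seeing the data, as was Spi1 at its low end. The cause of these moves was not tested. In a list of 10 genes each call weighs heavily, and calls near a list's threshold depend on sequencing depth, which is not known.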

Other observations

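H3K4me3 in both replicate 2 libraries and in neither replicate 1 library was called at 57 genes, 0.26% of all. They included 8 of the 97 genes formed by the members and the myeloid lists, which is 14.0% of the 57 and 8.25% of the 97. Besides Csf1r, Cd68 and Clec4f these were Fcgr1, C1qa, Tyrobp, Laptm5 and Itgal. Tyrobp encodes a signalling adaptor of myeloid receptors, and its fold was 6.53 in KO replicate 2 and 4.9 in WT replicate 2. Laptm5 encodes a lysosomal membrane protein of blood cells, and its fold was 10 in KO replicate 2 and 5.30 in WT replicate 2. Of 50 genes in the lists of hepatocytes, lymphocytes, endothelium, stellate cells and bile duct, 1 met the pattern. It was Pdgfrb, the upstream neighbour of Csf1r, with a fold of 6.53 in KO replicate 2 and 6.85 in WT replicate 2. The replicates differ in round and in the number of peaks called, and the part of either was not tested. All lists were chosen with earlier results of these data known, and whether the pattern is particular to myeloid cells was not tested.

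The 3 C1q genes, which lie side by side, had equal H3K27me3 folds in every library except that of 40 h, where C1qb had 1.67 and the others 1.54. The fold is that of the strongest island at a start, so genes in the same island have the same value by construction. Each such gene was still counted separately in its list. At C1qa the fold was 2.06 in KO, against 2.01 and 2.06 in WT replicates 1 and 2, and 1.68, 1.54 and 1.96 at 30, 40 and 96 h. H3K4me3 at C1qc was called in KO replicate 2 alone, with a fold of 8.70, and at C1qb likewise, with a fold of 5.13.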
